A study of Mus musculus with 4 samples.

Results

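The genes described here are those of the insulin-like growth factor (IGF) binding proteins, Igfbp1 to Igfbp7, with the ligand gene Igf1 and the receptor gene Igf1r. They were chosen by symbol, 9 of 25965 genes in the table, and each had 1 row. The cells were vascular smooth muscle cells (VSMCs) grown from the aortic media of healthy male wild-type C57Bl/6 mice aged 8 to 14 weeks, in medium with 10% fetal calf serum, for 3 to 5 passages. Polyadenylated RNA of such cells was sequenced in 4 libraries, here called libraries 1 to 4. They formed 1 group, with no treated or freshly isolated cells beside them, so the comparisons are between genes within a library and between libraries. The labels do not say whether the libraries came from separate animals or cultures, and a spread or p-value below covers only these 4 samples.

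IGF1 binds the receptor tyrosine kinase IGF1R, which signals through the IRS and SHC adaptors to PI3K, AKT and the MAP kinases, and in VSMCs it is known as a mitogen and survival factor. The secreted binding proteins hold IGFs with high affinity. They limit access to the receptor or deliver the ligand to the cell surface, and proteases that cut them release it. IGFBP7 differs from the others in binding IGFs weakly.

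Levels are log2 scaled read counts as deposited, in which a step of 1 is a doubling. For comparisons between genes they were divided by the exon length of the gene and are then given per kilobase (kb). The libraries held 40342561 to 56793195 recovered reads on genes, and mitochondrial genes took 0.0653% to 0.382% of them. Of 10 contractile smooth muscle markers, 10 were detected, and the log2 of their summed level was 14.04, 13.46, 14.75 and 15.02 in libraries 1 to 4. Of 10 adventitial fibroblast markers, 9 were detected, with a median level of 6.84, 6.87, 4.89 and 4.09 and a log2 summed level of 12.08, 12.05, 11.75 and 11.79, and none of the 10 was at 0 reads in a library. Endothelial markers (5 of 8 detected) had log2 summed levels of 6.19, 5.75, 6.30 and 4.71. Leukocyte markers (2 of 8 detected) had 5.90, 5.48, 3.78 and 3.73, with Cd3e and Cd79a at 0 reads in 4 of 4 libraries. The 2 detected were Lyz2 (927, 441, 68 and 39 reads) and Csf1r (564, 581, 187 and 296 reads). C1qa had 173, 201, 0 and 18 reads, and Ptprc, Cd68 and Emr1 had at most 49 in a library.

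Of the 9 genes, 8 were detected, that is, reached a log2 level of 0 in each of the 4 libraries, and 1, Igfbp1, had no reads. The same threshold was passed by 47.4% of all genes. Igfbp2 was the most abundant member by a wide margin, at 12.12 ± 1.23 per kb (log2, mean ± SD, n = 4). Igfbp7 (8.09 ± 0.78 per kb) and Igfbp4 (8.06 ± 0.08 per kb) came next, then Igfbp6 (4.90 ± 0.81 per kb) and Igf1r (3.81 ± 0.20 per kb). Igfbp3 (1.94 ± 1.14 per kb), Igf1 (1.55 ± 0.70 per kb) and Igfbp5 (1.05 ± 1.51 per kb) were the lowest detected members. The median of the 8 detected members was 4.35 ± 0.39 per kb over the libraries, beside 2.93 for all detected genes.

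**Figure D1:**
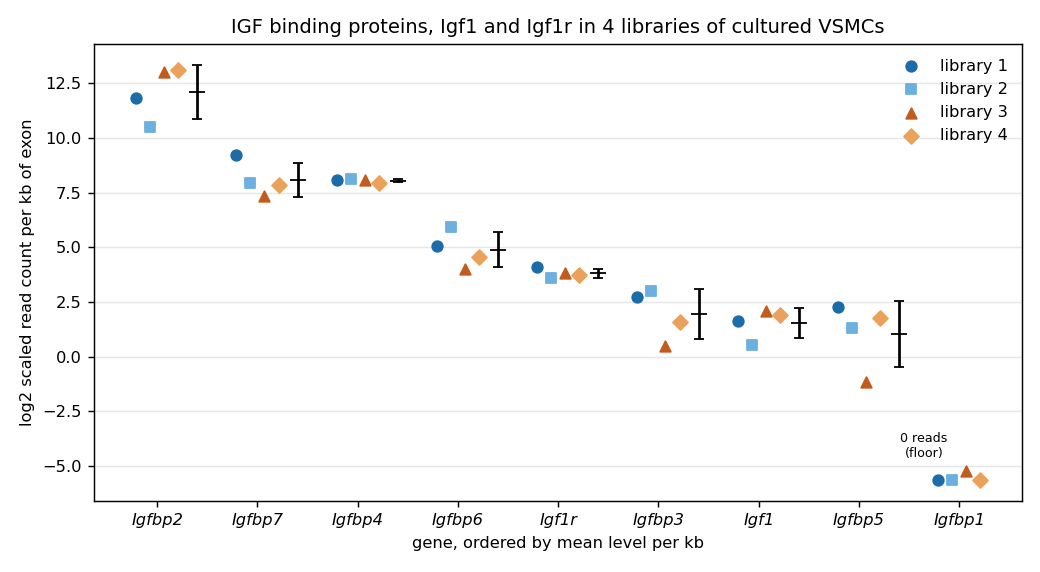
Level of each member per kb of exon (log2 scaled read count, vertical axis) in libraries 1 to 4, with genes ordered by their mean; black bars are the mean ± SD (n = 4) of detected members, and Igfbp1 is plotted at the floor for 0 reads. Igfbp2 lies between 10.50 and 13.13 and above each other member in 4 of 4 libraries, while the points of Igfbp3, Igf1 and Igfbp5 overlap.

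For each of the 36 pairs of members the difference per kb was taken within each library. In 32 pairs the difference had 1 sign in 4 of 4 libraries and was larger than its SD over the libraries; 8 of these pairs hold Igfbp1 at its floor. By a sign-flip permutation test (exact, two-sided) these pairs reached 2 of 16 arrangements, p = 0.13, adjusted p = 0.141 (Benjamini-Hochberg over 36). That is the smallest p with 4 libraries, so 0 pairs could pass 0.05, adjusted or unadjusted. Among neighbours in the order, Igfbp2 exceeded Igfbp7 by 4.03 ± 1.68, Igfbp4 exceeded Igfbp6 by 3.16 ± 0.77 and Igf1r exceeded Igfbp3 by 1.87 ± 1.15 (log2 differences per kb). Igfbp6 minus Igf1r was 1.09 ± 0.89 with the union of exons as the length, and this step was lost with the length of the longest transcript.

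The other 4 pairs did not differ beyond their spread. Igfbp7 minus Igfbp4 was 1.10, -0.18, -0.69 and -0.11 in libraries 1 to 4 (mean 0.03 ± 0.76, exact permutation p = 1). Igfbp3 minus Igf1 changed sign (0.40 ± 1.75, exact permutation p = 0.75), as did Igf1 minus Igfbp5 (0.49 ± 1.88, exact permutation p = 0.875) and Igfbp3 minus Igfbp5 (0.89 ± 0.92, exact permutation p = 0.25). With the longest transcript as the length, Igfbp4 moved to 8.26 ± 0.08 per kb and Igf1r to 4.37 ± 0.20 per kb. With that length 31 of the 32 pairs still had 1 sign. Igfbp6 minus Igf1r did not (0.41, 1.78, -0.34 and 0.28, mean 0.53 ± 0.89), while Igfbp3 minus Igfbp5 then had 1 sign (1.26 ± 0.92).

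Both ends of this order lie in 2 tight gene pairs of the genome. On chromosome 1 (GRCm38), Igfbp2 (72824503 to 72852474, plus strand) is followed after 5457 bases by Igfbp5 (72857932 to 72874884, minus strand). On chromosome 11, Igfbp1 (7197782 to 7202546, plus strand) is followed after 3539 bases by Igfbp3 (7206086 to 7213923, minus strand). In each pair the genes point towards each other, and 0 other genes of the table lie between them. The 4 promoters are shown because these close neighbours differed so widely in level. They are RefSeq sequences on GRCm38.p6, 5′ to 3′ on the strand of the gene, ending before the first annotated exon base: chr1:72824230-72824479 for Igfbp2, chr1:72874885-72875115 for Igfbp5, chr11:7197537-7197781 for Igfbp1 and chr11:7213924-7214173 for Igfbp3. Capitals mark the GC box GGGCGG, a site known for SP1 factors, and CAAAACA, the core of the insulin response element known from the Igfbp1 promoter, where FOXO factors bind.
Igfbp2: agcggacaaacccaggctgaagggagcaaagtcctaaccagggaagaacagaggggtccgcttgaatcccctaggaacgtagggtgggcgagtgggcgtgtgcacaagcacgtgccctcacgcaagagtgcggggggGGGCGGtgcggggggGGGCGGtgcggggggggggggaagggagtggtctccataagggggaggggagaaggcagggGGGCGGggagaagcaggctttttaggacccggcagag
Igfbp5: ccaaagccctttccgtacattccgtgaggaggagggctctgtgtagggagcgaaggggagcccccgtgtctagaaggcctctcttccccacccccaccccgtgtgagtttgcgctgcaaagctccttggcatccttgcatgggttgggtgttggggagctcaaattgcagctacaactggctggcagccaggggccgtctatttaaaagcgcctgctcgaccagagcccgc
Igfbp1: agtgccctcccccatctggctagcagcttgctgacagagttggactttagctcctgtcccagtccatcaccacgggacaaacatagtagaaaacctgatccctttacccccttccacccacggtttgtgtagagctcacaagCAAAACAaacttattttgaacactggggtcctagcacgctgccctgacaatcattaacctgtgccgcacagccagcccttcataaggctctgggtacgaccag
Igfbp3: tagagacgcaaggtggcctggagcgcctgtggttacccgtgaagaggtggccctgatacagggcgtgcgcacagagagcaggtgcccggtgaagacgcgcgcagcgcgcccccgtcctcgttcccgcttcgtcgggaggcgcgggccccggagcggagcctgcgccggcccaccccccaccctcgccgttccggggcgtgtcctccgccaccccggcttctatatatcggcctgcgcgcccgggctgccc

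The Igfbp2 window held 3 GC boxes and none of the other motifs searched. Igfbp2 had 2 RefSeq promoter entries, and only the entry nearest the deposited gene start was shown and searched. The Igfbp1 window held 1 insulin response core, which ends 96 bases before the end of the printed window. The windows of Igfbp5 and Igfbp3 held none of the 4 motifs. These were the GC box and insulin response core as spelled above, TATAAA as the TATA box, and the CArG box known for serum response factor, each searched on both strands. The printed windows were 231 to 250 bases long. Of 32851 RefSeq promoter windows of 250 bases, 32.7% held the GC box, 5.56% the insulin response core, 12.4% the TATA box and 1.47% the CArG box. The share of G and C was 67.2% for Igfbp2, 60.6% for Igfbp5, 52.7% for Igfbp1 and 73.2% for Igfbp3, beside a median of 52.4% over all windows. These matches describe letters and were not related to binding in these cells.

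Igfbp2 encodes a binding protein with a preference for IGF2 that also carries an integrin-binding motif. Its level was 12.70, 11.39, 13.91 and 14.02 in libraries 1 to 4, from 193821, 77375, 338753 and 487799 reads. Libraries 3 and 4 were high and close together, library 1 was intermediate and library 2 was low, a range of 6.20-fold. With a mean of 13.00 ± 1.23 it ranked 16 of 25965 genes by reads, and 11 of 12100 detected genes of known length by level per kb. It took 0.344%, 0.139%, 0.840% and 0.859% of the reads on genes.

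Its neighbour Igfbp5, encoding a binding protein that associates with the extracellular matrix, had levels of 4.84, 3.91, 1.45 and 4.36. These came from 835, 434, 60 and 603 reads, and the 60 reads of library 3 have an exact Poisson 95% interval of 45.8 to 77.2. Library 3 was low and the other libraries lay within about 1 log2 unit of each other. The range of 10.5-fold was the widest among the detected members, and without library 3 the SD dropped from 1.51 to 0.47. Per kb, Igfbp2 exceeded Igfbp5 by 755-fold, 580-fold, 18359-fold and 2631-fold in libraries 1 to 4.

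Igfbp1, a binding protein gene known from liver and decidua and repressed by insulin, had 0 reads throughout; a count of 0 leaves room for 3 reads per library. Its neighbour Igfbp3, encoding the main carrier of IGFs in serum, was detected at 4.36, 4.64, 2.14 and 3.22, from 596, 720, 97 and 274 reads. Libraries 1 and 2 were high and library 3 was low, a range of 5.65-fold. With Igfbp1 set at 3 reads in each library, Igfbp3 was at least 96.8-fold, 117-fold, 15.8-fold and 44.5-fold higher per kb. These bounds and intervals cover counting error only.

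Igfbp4, encoding a binding protein known mainly as an inhibitor of IGF action, lies on chromosome 11 (99041244 to 99054392). Its levels were 10.24, 10.27, 10.21 and 10.09, and the 4 libraries lay within 1.13-fold. The SD of 0.08 was larger than the 0.01 that counting error alone gives at 25964 to 35635 reads, but lower than that of 98.7% of detected genes. This evenness depends on the scaling. Size factors from median ratios move the median gene by -0.32, -0.10, 0.30 and 0.12 in libraries 1 to 4, and with them Igfbp4 was 9.92, 10.17, 10.50 and 10.21, an SD of 0.24.

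Igfbp7, encoding the low-affinity relative that accumulates in vascular basement membranes, lies on chromosome 5 (77349240 to 77408045). Its levels were 9.48, 8.22, 7.64 and 8.11, from 20752, 8598, 4400 and 8119 reads. Library 1 was high and the other 3 were close together, and without library 1 the SD dropped from 0.78 to 0.30. The gene overlaps the end of Polr2b by 85 bases, and which strand setting was used in counting is not given in the sources used here.

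Igfbp6, encoding a binding protein that prefers IGF2, lies on chromosome 15 (102144362 to 102149511). Its levels were 5.21, 6.10, 4.17 and 4.74, from 1073, 1976, 397 and 783 reads. Library 2 was high and library 3 low, and the libraries stood in the same order as for Igfbp3. This order, 3, 4, 1, 2 from low to high, was the same for both genes under both scalings. How many of all detected genes had this order was not counted. Igfbp2 and Igf1 also shared an order with median-ratio size factors, 2, 1, 4, 3 from low to high.

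Igf1 (chromosome 10, 87858265 to 87937042) was detected at 4.95, 3.85, 5.42 and 5.19, from 900, 416, 941 and 1076 reads. On the deposited scaling, library 2 was low and the other 3 lay close together, and without library 2 the SD dropped from 0.70 to 0.23. With median-ratio size factors Igf1 was 4.63, 3.75, 5.72 and 5.31, an SD of 0.86, and libraries 1, 3 and 4 lay further apart. The gene model Gm16176 overlaps Igf1 by 5117 bases and had 0, 0, 7 and 0 reads. Igf1r (chromosome 7, 67952859 to 68226780) had levels of 8.15, 7.68, 7.88 and 7.81, within 1.39-fold, with an SD of 0.20, or 0.25 with median-ratio size factors. The receptor gene exceeded the ligand gene by 2.44, 3.07, 1.70 and 1.85 per kb (log2 differences, mean 2.26 ± 0.62), the widest gap being in library 2.

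As a share of the summed level per kb of the 7 binding protein genes, Igfbp2 took 79.9%, 70.8%, 94.9% and 94.7% in libraries 1 to 4 (85.1% ± 11.8, SD, n = 4). Igfbp7 took 13.1%, 12.0%, 1.88% and 2.41%, and Igfbp4 took 6.08%, 13.6%, 3.04% and 2.59%. Igfbp6 reached 3.00% in library 2 and was between 0.185% and 0.734% in the others. Igfbp3 and Igfbp5 stayed at or below 0.389% and 0.122%. The log2 of the summed level per kb was 12.14, 11.00, 13.10 and 13.21, and without Igfbp2 it was 9.83, 9.22, 8.82 and 8.98. On the deposited scaling, libraries 3 and 4 thus had the higher total and the lower remainder. Both sums depend on the scaling, and median-ratio size factors move levels by -0.32, -0.10, 0.30 and 0.12 in libraries 1 to 4. The remainder was not compared under these size factors. A share within a library does not depend on its scaling. With no division by length the share of Igfbp2 was 80.6% ± 14.3, and with the longest transcript 88.0% ± 9.70.

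**Figure D2:**
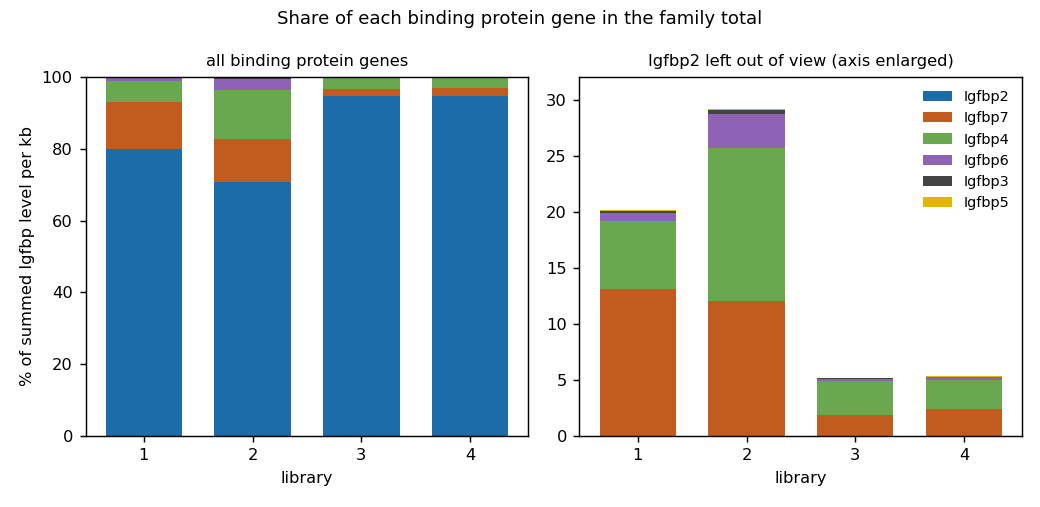
Share of each binding protein gene in the summed level per kb of Igfbp1 to Igfbp7 (vertical axis, %) in libraries 1 to 4; the left panel stacks the detected genes and the right panel shows the same shares with Igfbp2 left out of view. Igfbp2 takes 79.9%, 70.8%, 94.9% and 94.7% in libraries 1 to 4, and in the first 2 Igfbp7 and Igfbp4 fill most of the rest.

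A gene was called variable when its SD between libraries exceeded 0.5 on the log2 scale, which 40.5% of detected genes did. Of the 8 detected members, 6 were variable: Igfbp5, Igfbp2, Igfbp3, Igfbp6, Igfbp7 and Igf1. Igfbp4 and Igf1r were not. The median SD of the detected members was 0.80, beside 0.43 for all detected genes. The SDs of Igfbp5, Igfbp2 and Igfbp3 exceeded those of 99.0%, 97.5% and 96.6% of detected genes. An SD above 1 was reached by these 3 members and by 5.8% of detected genes. Counting error alone would give SDs of at most 0.11 in the detected members. With median-ratio size factors 6 members were again variable, beside 30.8% of detected genes. Libraries were left out in turn on the deposited scaling only, and the calls below were not repeated with median-ratio size factors. On the deposited scaling, the calls of single members rested on single libraries in 3 cases. Igfbp7 was not variable without library 1, Igf1 without library 2 and Igfbp5 without library 3. Leaving out libraries 1 to 4 in turn, 5, 5, 5 and 6 members were variable, beside 27.2%, 43.8%, 34.6% and 46% of detected genes. Single libraries also moved the SDs of Igfbp2 (0.73 without library 2), Igfbp3 (0.75 without library 3), Igfbp6 (0.52 without library 2), Igfbp4 (0.03 without library 4) and Igf1r (0.10 without library 1), with no change of call.

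**Figure D3:**
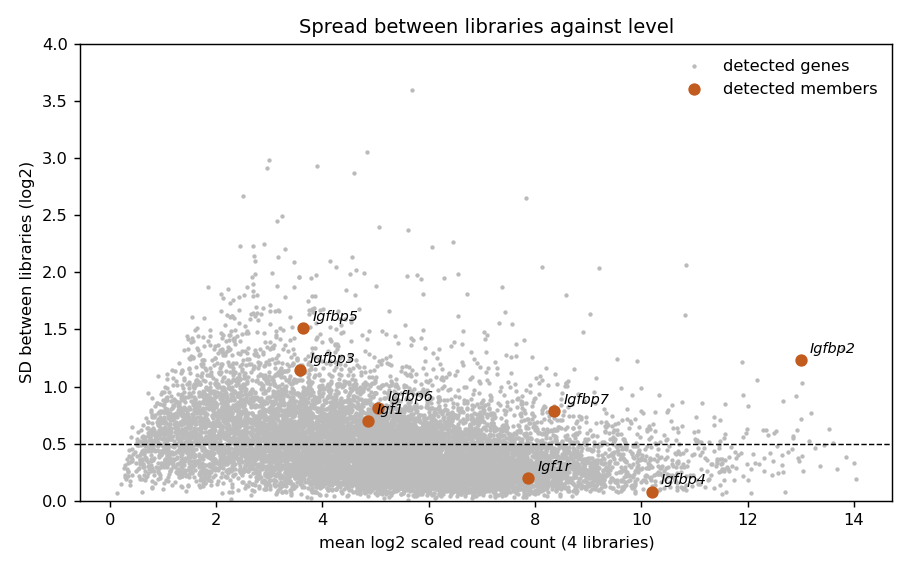
SD between libraries (vertical axis, log2) against the mean log2 scaled read count (horizontal axis) of detected genes in grey, with the 8 detected members in orange; the dashed line is the SD of 0.5 above which a gene was called variable. Igfbp2 stands at a mean of 13.00 with an SD of 1.23, and Igfbp4 at 10.20 with 0.08.

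The variable members did not share 1 order of libraries. Igfbp2 and Igf1 were lowest in library 2 and higher in libraries 3 and 4 than in library 1. Igfbp3, Igfbp5, Igfbp6 and Igfbp7 were lowest in library 3, as were 52.9% of all detected genes, or 28.7% with median-ratio size factors. These lowest libraries were the same with median-ratio size factors, under which the highest library of Igfbp2 was library 3 (14.21) in place of library 4. The summed contractile markers were lowest in library 2 and highest in library 4, but not each gene followed the sum. Tpm2 (11.89, 12.37, 13.67 and 13.70) and Des (3.73, 4.08, 5.28 and 4.43) were lowest in library 1. Cald1 (12.30, 11.17, 11.51 and 11.77) was highest in library 1. The median fibroblast marker was lower in libraries 3 and 4 than in libraries 1 and 2. The log2 summed level of the fibroblast markers changed less (12.08, 12.05, 11.75 and 11.79). Gsn, the highest of them, was nearly even at 11.65, 11.69, 11.50 and 11.58. Dpt (7.15, 7.02, 2.32 and 1.92) and Serpinf1 (8.53, 8.28, 4.86 and 4.18) were much lower in libraries 3 and 4. Pdgfra, Pi16, Mfap5, Lum and Dcn were also lower there. Clec3b did not split this way (4.78, 4.34, 4.95 and 3.99). Cd34 of that list went the other way, at 6.44, 6.96, 8.45 and 8.31 in libraries 1 to 4. In bulk RNA, fewer cells of a type and less RNA per cell cannot be told apart. Library 3 had the lowest depth, the largest mitochondrial share (0.382%, against 0.0653% to 0.133% in the others) and the most genes without reads (10801, against 8421 to 9957). The part of these values or of the marker levels in the levels of the members was not tested.

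Other genes of the pathway were taken from 10 lists by role, 74 genes in all, of which 60 were detected (81.1%, beside the 47.4% of all genes) and 36 of those were variable (60.0%, beside 40.5%). Without library 1, 18 pathway genes were variable, beside 27.2% of all detected genes. Of the other ligand and carrier genes, 0 of 4 were detected. Igf2, the fetal growth factor gene, had 16, 27, 0 and 17 reads, and Igfals, encoding the acid-labile subunit of the serum carrier complex, had 4, 10, 17 and 0. The insulin genes Ins1 and Ins2 had 0 reads throughout, with the same limit of 3 reads per library.

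Of the other receptors, 2 of 3 were detected. Igf2r, encoding the receptor that clears IGF2 and carries lysosomal enzymes, was at 8.90, 8.03, 6.85 and 7.59. Insr, the insulin receptor gene, was lower at 5.63, 4.66, 4.35 and 4.52. Igf1r exceeded Insr by 2.80 ± 0.43 per kb, in 4 of 4 libraries. Igf2r minus Igf1r was 1.60, 1.20, -0.17 and 0.63 per kb, with library 3 on the other side of 0.

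Among proteases of binding proteins and their inhibitors, 6 of 9 were detected and 4 of these were variable. Htra1, encoding a secreted serine protease that cleaves IGFBPs, was at 7.89, 7.58, 9.06 and 9.81, high in libraries 3 and 4. Adam9, a membrane metalloprotease gene, was at 9.51, 8.37, 7.59 and 7.98, high in library 1. Pappa, encoding the protease known for cutting IGFBP4, had the largest SD among the detected genes of this list, with levels of 6.06, 2.77, 4.24 and 3.49.

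Of the 10 relatives that share the IGFBP-type domain, 8 were detected and 7 variable. Ctgf and Wisp2, matricellular genes of the CCN family, were the 2 highest at 10.86 ± 0.58 and 10.64 ± 0.58 per kb, below the 12.12 of Igfbp2 and above the other members. Nov, of the same family, averaged 6.23 ± 1.07 as deposited. Of the adaptors, 9 of 10 were detected, led per kb by Shc1 (5.87 ± 0.20 per kb) and Grb2 (4.98 ± 0.37 per kb). Grb14, encoding an inhibitory adaptor of the insulin receptor, varied most of the detected adaptors, at 5.61, 4.70, 3.42 and 3.15.

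Of the PI3K, AKT and mTOR genes, 18 of 18 were detected and 10 were variable. Akt1, the kinase gene downstream of PI3K, led at 7.59 ± 0.39 per kb, followed by Rheb, encoding the GTPase that activates mTORC1, at 5.59 ± 0.46 per kb. Pdpk1, encoding the kinase that activates AKT, varied most, at 4.60, 3.62, 2.44 and 3.75. Of the FOXO factor genes 3 of 4 were detected and 0 were variable: Foxo4 at 4.58 ± 0.33, Foxo3 at 3.72 ± 0.30 and Foxo1 at 1.75 ± 0.42 per kb. These are factors known to bind the insulin response element marked above in the promoter of Igfbp1.

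Of the growth hormone axis, which drives Igf1 transcription in liver, 5 of 5 genes were detected. Ghr, the growth hormone receptor gene, was at 8.01, 6.47, 6.42 and 6.55, and Stat5b at 2.74 ± 0.35 per kb. Of the Igf2 mRNA-binding protein genes and H19, the imprinted neighbour of Igf2, 2 of 4 were detected: H19 at 3.66, 4.18, 3.60 and 4.60, and Igf2bp2 at 5.53, 5.48, 5.18 and 5.29. All 7 cell-surface partners of binding proteins were detected. Itgb1, the common beta chain of many integrins, was highest at 8.63 ± 0.41 per kb. Itga5, the alpha chain of the fibronectin receptor, had levels of 7.89, 7.40, 10.26 and 10.63. It was high in libraries 3 and 4, as Igfbp2 and Htra1 were. So were others of these lists, among them Itgb3 (5.58, 5.77, 7.82 and 8.04) and Kazald1 (7.59, 7.88, 9.71 and 9.32). How many of all detected genes had this pattern was not counted.

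**Figure D4:**
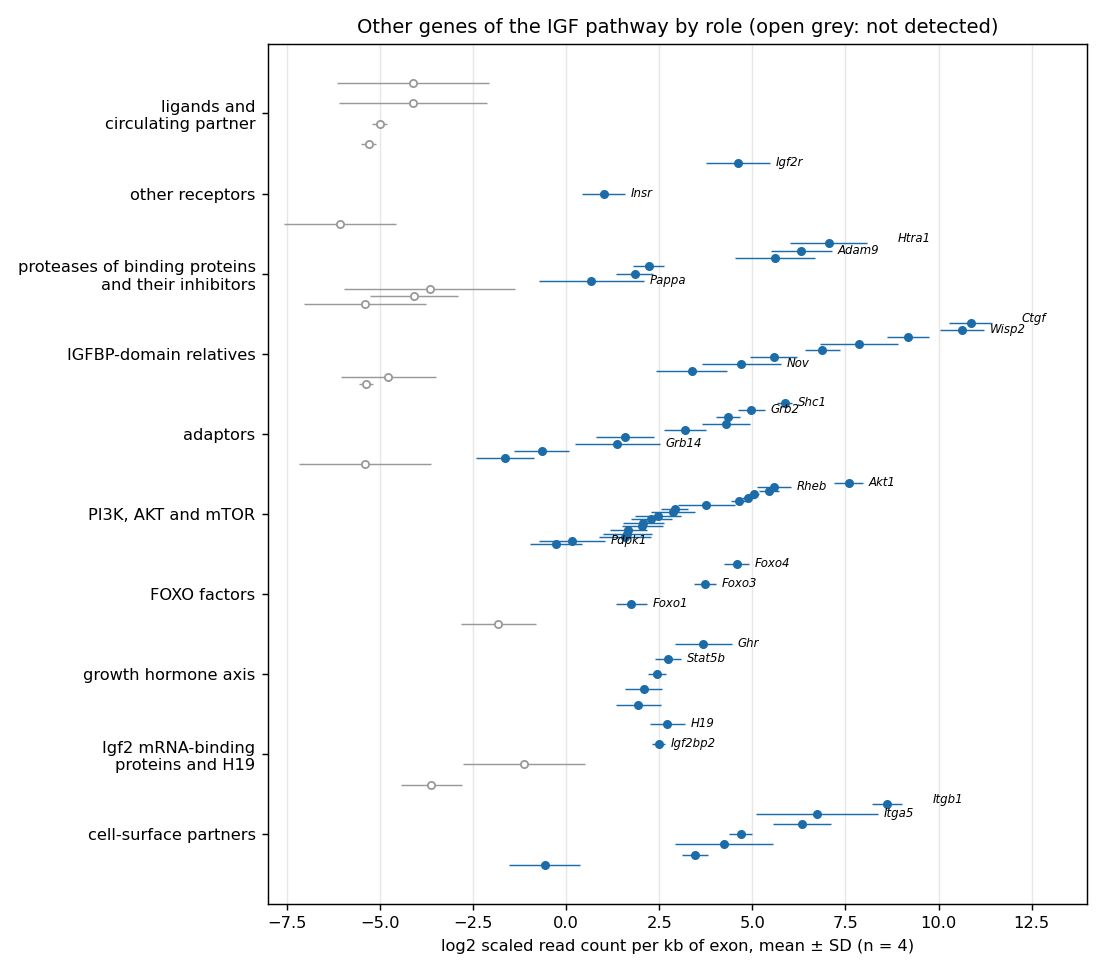
Mean ± SD (n = 4) of the level per kb of exon (horizontal axis, log2 scaled read count) of 74 other genes of the IGF pathway, in rows by role; filled blue points were detected and open grey points were not, with genes without reads at the floor. The 4 ligand and carrier genes are open, while 18 of 18 PI3K, AKT and mTOR genes are filled.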

How the data were processed

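RNA was sequenced from 4 libraries of 1 group. Libraries were made with a strand-preserving poly(A) kit, per the labels' protocols. The submitters' processing notes name TopHat, Trim Galore, cutadapt and the build GRCm38, without versions. Counting tool, annotation and strandedness: not given in the sources used here. The authors deposited log2 values, each the log2 of a whole read count times a constant of its library, with genes without reads at 0.9 read. Whole reads were recovered for 99.7% to 99.8% of values (within 0.05 read). One fragment may have given several of these counts. Detection at log2 0 took 22 to 30 reads.

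Exon lengths were the union of exons in GENCODE M21 (GRCm38), matched by symbol or older symbol and position for 94.6% of genes; the longest transcript was an alternative. Pairs of members were compared within libraries by an exact sign-flip permutation test (16 arrangements). Shares used linear levels per kb. The SD from counting was that of Poisson reads. RefSeq promoter windows were matched by symbol for 9 of 9 members. The members, the 10 pathway and 4 marker lists were chosen with earlier results of these data known. Named pathway genes were the 2 highest per kb of each list, the most variable detected one, and genes with no reads. Alternatives were other thresholds, scalings and lengths, no filter, and leaving out each library. The code was tested on simulated data. Software was pandas 2.3.3, scipy 1.17.1, numpy 2.4.6 and matplotlib 3.10.9 under Python 3.11.15.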

Additional observations from a re-analysis of the deposited data

Results flagged for a closer look

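In 37 sets of 4 values (levels and shares of members, levels of named pathway genes), 3 had a library whose gap to the nearest other, divided by the range, exceeded Dixon's 95% critical value; chance flags about 1 in 20. They were Ghr (ratio 0.918, levels 8.01, 6.47, 6.42 and 6.55), Wisp2 (0.857, levels 12.45, 11.34, 11.36 and 11.18) and Nov (0.836, levels 7.81, 5.48, 5.86 and 5.75). In each of the 3, library 1 was the high one. None of the 8 detected members or their shares was among them, and Igfbp1, without reads, was not examined.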

How the results depend on the processing

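Of 54 alternative values of the counts, shares and median level, 49 stayed within the spread between libraries or within 1.5 times the main count, and 5 did not. With variable genes defined by an SD above 1, the variable members numbered 3 in place of 6 and the variable pathway genes 8 in place of 36, beside 5.8% of all detected genes. Leaving out 1 library at a time gave 18 to 40 variable pathway genes, the 18 without library 1 and the 40 without library 4. Of all detected genes, 27.2% were variable without library 1 and 46% without library 4. Leaving out single libraries kept 0 to 2 of the 3 genes nearest in pattern to Igfbp5. That number was 0 without library 3 and 0 without library 4. With median-ratio size factors 25 of 61 detected pathway genes were variable, beside 30.8% of all detected genes. With genes without reads set at 3 reads, chosen after seeing the data, 32 pairs had 1 sign. The cause of these differences was not tested. No pairing of libraries between groups was possible because the libraries form 1 group. Igfbp1 lies under the limit of 3 reads, and the 60 reads of Igfbp5 in library 3 are the thinnest support of a detected member.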

Other observations

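For Igfbp5, the detected member with the largest SD, the 3 genes with the most similar pattern over 4 libraries were Mtap2, Atp7a and Mrgprf, searched over 11171 detected genes whose mean reached 2. Likeness was the root mean square difference of the mean-centred log2 values, which was 0.32, 0.34 and 0.42. Mtap2, a neuronal microtubule-associated protein gene, was at 4.02, 2.95, 0.97 and 2.99, and Atp7a, a copper transporter gene, at 4.12, 2.91, 0.45 and 2.71. Mrgprf, an orphan receptor gene, was at 3.36, 2.91, 0.83 and 2.67. The 3 were low in library 3, as Igfbp5 was, and 4 libraries describe a pattern without testing it.

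Of the 60 detected pathway genes, 44 were highest in library 1 and 31 lowest in library 3. Of all detected genes 53.6% were highest in library 1 and 52.9% lowest in library 3. With median-ratio size factors, 33 of the 60 were highest in library 1 and 18 lowest in library 3, beside 31% and 28.7% of all detected genes.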
